A study of Mus musculus with 4 samples.

Results

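The regions described here were Tfcp2l1 binding sites found in both repeats of a ChIP-seq experiment (chromatin immunoprecipitation followed by sequencing) and lying at a middle distance from genes. A peak of repeat 1 was taken if it overlapped a peak of repeat 2 by at least 1 bp, lay on an autosome, and had its summit more than 1 kb and at most 10 kb from the nearest start or end of a protein-coding gene. Of 43258 shared autosomal peaks, 13373 met this rule (30.9%, 95% exact binomial interval 30.5% to 31.4%), out of 57614 peaks called in repeat 1. Another 6063 shared peaks lay within 1 kb of a gene end, 19573 at 10 to 100 kb and 4249 farther away.

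The experiment asked where in the genome Tfcp2l1 is bound in mouse embryonic stem cells. All 4 libraries came from wild-type cells without further treatment, grown in 2i, which here meant the GSK3 inhibitor CHIR99021 at 3 µM and the MEK inhibitor PD0325901 at 1 µM, together with LIF at 1000 units/mL. Each of 2 repeats had 1 ChIP library, made from 50000000 cells with 10 µg of a custom antibody against the mouse protein, and 1 input library of chromatin without antibody. Nothing in the labels says that the repeats were separate cultures, so differences between them may be technical only. With binding sites alone and no expression values, the labelled cell type could not be checked against marker genes. After removal of duplicates, the ChIP libraries held 19353473 tags in repeat 1 and 22555373 in repeat 2, per the file headers. Pairs of values below give repeat 1 first, fold enrichment is the authors' ratio of ChIP tags to the local background at a peak, and positions are in GRCm38.

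Tfcp2l1 belongs to the CP2 family of transcription factors, which is related to the Grainyhead family. In mouse embryonic stem cells it acts downstream of LIF and Stat3 and helps to keep the naive pluripotent state, and it is also expressed in kidney and other epithelia. CP2 proteins bind DNA as oligomers, and their sites hold a pair of short half-sites in the same orientation, set about a turn of the helix apart.

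Sequence was at hand only where a peak met a RefSeq promoter window, the 300 bases from 250 before to 50 after an annotated start. The summits of 254 regions fell in such a window (1.90% of 13373), of which 180 were at protein-coding starts and 74 at starts of long non-coding RNAs (lncRNAs). For 167 of them the window belonged to the nearest protein-coding gene, since a gene may have several starts and the outermost end set the distance. The windows were searched on both strands for 2 half-sites with a spacer of 6 bases, written CCAGNNNNNNCCAG for the strict pair and CCNGNNNNNNCCNG for the loose pair. The next lines show the strict pair at the 7 regions of best rank that held it below the summit, with the half-sites in capitals. They were chosen because they hold the pair, so they illustrate it and do not count as support.
Sema6c, chr3:95164126-95164185, plus strand: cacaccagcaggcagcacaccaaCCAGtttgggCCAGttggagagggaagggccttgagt
Morn3, chr5:123037092-123037148, minus strand: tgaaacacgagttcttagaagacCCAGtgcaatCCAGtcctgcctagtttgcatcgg
Slc43a2, chr11:75531462-75531521, minus strand: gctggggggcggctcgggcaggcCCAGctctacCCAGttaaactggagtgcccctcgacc
Id4, chr13:48273994-48274053, minus strand: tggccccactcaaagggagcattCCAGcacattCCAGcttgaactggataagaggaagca
Cldn19, chr4:119256492-119256551, minus strand: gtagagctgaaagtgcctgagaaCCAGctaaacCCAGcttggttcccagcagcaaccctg
Kcnn1, chr8:70863375-70863434, minus strand: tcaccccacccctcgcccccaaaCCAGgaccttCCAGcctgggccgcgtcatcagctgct
Nsun6, chr2:15049424-15049483, minus strand: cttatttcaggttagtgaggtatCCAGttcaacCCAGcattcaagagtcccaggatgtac

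These 7 regions had between 23.4-fold and 102-fold enrichment in repeat 1 and between 29.2-fold and 69.1-fold in repeat 2. The pair near Sema6c, a semaphorin gene, was centred 77 bp below the repeat 1 summit and 85 bp below the repeat 2 summit ("below" meaning toward lower chromosome positions). At Morn3 it was 70 bp and 81 bp below, at Kcnn1, a potassium channel gene, 77 bp and 71 bp below, and at Nsun6, an RNA methyltransferase gene, 78 bp and 92 bp below. At Id4, an inhibitor of basic helix-loop-helix factors, it was 87 bp and 114 bp below. It lay farther off at Slc43a2 (133 bp and 171 bp below) and at Cldn19 (118 bp and 117 bp below).

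The pairs gathered on 1 side of the recorded summits. All positions with sequence near a summit were counted, also where the summit itself lay outside a window, so this set is not limited to the 254 regions. In it, 16 strict pairs were centred in the 150 bp below the repeat 1 summit and 4 in the 150 bp above it. Some of them overlapped in 1 region. The rates were 0.455 and 0.119 per 1000 positions searched. With the summits of repeat 2 there were 19 below and 2 above (0.497 and 0.0564 per 1000 positions). The step from 50 to 100 bp below the summit held 12 of the strict pairs in repeat 1, a rate of 0.995 per 1000 positions, and 10 in repeat 2, a rate of 0.794. That step thus held the most strict pairs in both repeats, but the distance varied between single pairs. Near Hoxd10, a strict pair was 74 bp below the repeat 1 summit and 15 bp above the repeat 2 summit. Shared peaks within 1 kb of gene ends, a separate set of regions, had 104 strict pairs below and 18 above (0.464 and 0.104 per 1000 positions). The cause of this displacement was not tested. When all summits were moved 75 bp to lower positions, 159 regions left the distance range and 159 entered it, so that the number of regions was again 13373.

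**Figure D1:**
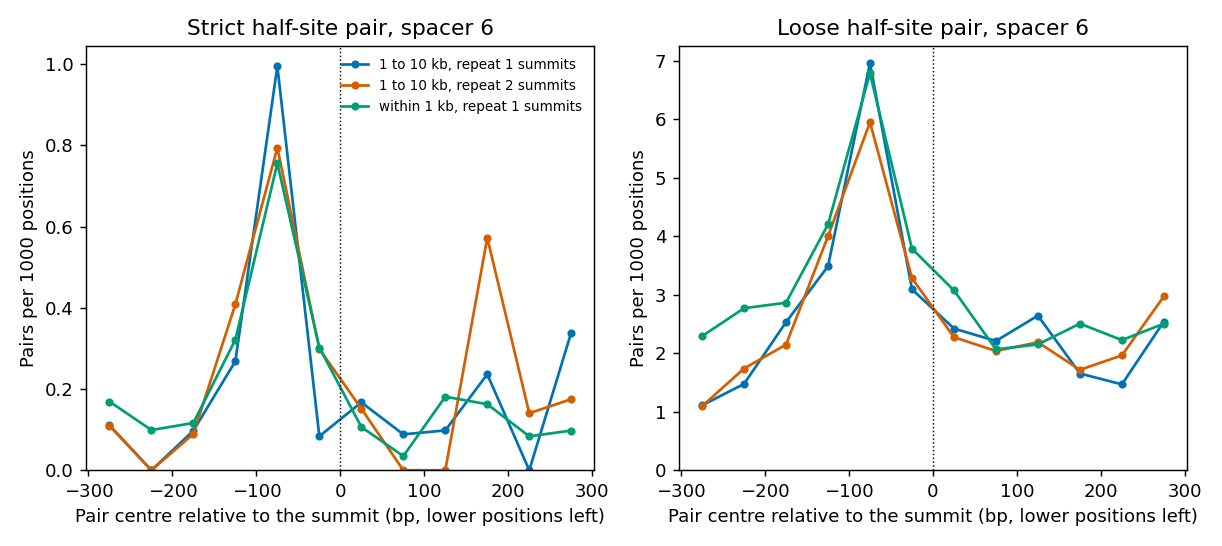
Half-site pairs per 1000 positions searched (vertical axis) against the distance of the pair centre from the recorded summit in 50 bp steps (horizontal axis, lower chromosome positions to the left), for the strict pair (left) and the loose pair (right), with 1 line per set of summits. In every set the rate was highest 50 to 100 bp below the summit, at 0.995 strict pairs per 1000 positions for regions 1 to 10 kb from gene ends with repeat 1 summits. The single points above the summit rest on few strict pairs.

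The same search was counted over complete stretches of 150 bp. The strict pair stood in 7 of 112 complete stretches below the summit (6.25%, 2.55% to 12.5%) and in 2 of 128 above it (1.56%, 0.190% to 5.53%). Among 65702 stretches of the same length from all promoter windows, 1.82% held it. The loose pair stood in 47 of 112 stretches below (42.0%, 32.7% to 51.7%) and in 30 of 128 above (23.4%, 16.4% to 31.7%), against 17.6% of all stretches. That excess was not particular to a spacer of 6, since at the other 10 spacers between 2 and 12 bases the loose pair stood in 25.4% to 41.2% of stretches below the summit, against 16.7% to 19.8% of all stretches. The share of G and C was 61.8% below and 60.5% above the summit. It was not computed for the stretches of all promoter windows, so the comparison with them is not matched for it. In regions with at least 20-fold enrichment in both repeats, 9 strict pairs lay below the summit (0.910 per 1000 positions), and in the other regions 7 did (0.277 per 1000 positions). Counted over complete stretches only, 6 of 34 stretches below held the strict pair (17.6%, 6.76% to 34.5%) in the first set and 1 of 78 (1.28%, 0.0325% to 6.94%) in the second. These intervals cover counting error only and overlap in a narrow range, and the numbers of pairs are small.

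The spacer was compared with 10 others between 2 and 12 bases. Below the repeat 1 summit the strict rate was highest at a spacer of 6 (0.455 per 1000 positions, 16 pairs), followed by 2 (0.365, 13 pairs) and 3 (0.337, 12 pairs). A spacer of 5 gave 0.0849 and a spacer of 7 gave 0.114. Counted over complete stretches, a spacer of 3 was the highest, with 8 of 114 (7.02%) against 7 of 112 (6.25%) at a spacer of 6. Counts of 16, 13 and 12 pairs are too low to order these 3 spacers. Among the stretches of all promoter windows the strict pair stood in 2.29% at a spacer of 3 and in 1.82% at 6. Below the repeat 1 summit the strict pair thus exceeded the share of all stretches at a spacer of 3 as well as at 6. Pairs below and above that summit numbered 12 and 9 at a spacer of 3, 13 and 4 at 2, and 16 and 4 at 6. With repeat 2 summits a spacer of 6 was the highest on both counts, at 0.497 per 1000 positions and 6.87% of 131 stretches. A spacer of 3 then gave 0.363 and 5.22% of 134. No excess was seen at a spacer of 5, where the strict pair stood in 0% of 114 stretches below the repeat 1 summit, against 1.86% of all stretches. In shared peaks within 1 kb, where more pairs were found, a spacer of 6 gave 0.464 and a spacer of 2 gave 0.304 per 1000 positions. There the complete stretches had the strict pair at 6.77% with a spacer of 6 and at 1.93% to 4.02% with the others.

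At some of the most enriched regions the part of the peak inside a promoter window held the loose pair below the summit and no strict pair there. The rest of each peak was not read. The next lines show it near Dync1h1, the heavy chain of cytoplasmic dynein (178-fold and 122-fold), near Klhdc10 (140-fold and 101-fold), near Acot7, an acyl-CoA thioesterase gene (107-fold and 71.8-fold), and near Bahcc1 (92.3-fold and 76.5-fold), in the same notation.
Dync1h1, chr12:110608953-110609012, plus strand: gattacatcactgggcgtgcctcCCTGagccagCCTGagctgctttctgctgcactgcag
Klhdc10, chr6:30460814-30460873, minus strand: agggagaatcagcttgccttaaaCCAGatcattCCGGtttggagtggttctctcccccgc
Acot7, chr4:152185358-152185408, minus strand: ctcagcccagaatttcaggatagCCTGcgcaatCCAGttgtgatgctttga
Bahcc1, chr11:120231600-120231659, minus strand: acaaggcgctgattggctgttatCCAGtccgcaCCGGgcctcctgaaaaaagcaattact

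A whole window of 300 bases is shown for Rbm26, which encodes an RNA-binding protein, because it carries 2 loose pairs near one of the strongest summits (169-fold and 98.5-fold). The summit is base 95 of the printed strand, and both pairs stand after it, which on this strand is toward lower chromosome positions.
Rbm26, chr14:105177265-105177564, minus strand: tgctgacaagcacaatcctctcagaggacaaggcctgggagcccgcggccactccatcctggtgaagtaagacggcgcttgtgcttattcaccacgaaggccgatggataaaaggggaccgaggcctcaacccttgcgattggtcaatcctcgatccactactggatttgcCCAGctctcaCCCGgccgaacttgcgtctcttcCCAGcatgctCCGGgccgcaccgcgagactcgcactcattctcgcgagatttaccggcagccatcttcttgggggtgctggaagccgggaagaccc

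Strong enrichment also occurred without the pair at a spacer of 6 in the letters read. The window of the lncRNA gene Gm34988, inside Rab15, had its summit at base 246 with 103-fold and 109-fold enrichment, and neither strict nor loose pairs at a spacer of 6 were among its letters, shown next. That says only that these letters are not in this window.
Gm34988, chr12:76818067-76818366, plus strand: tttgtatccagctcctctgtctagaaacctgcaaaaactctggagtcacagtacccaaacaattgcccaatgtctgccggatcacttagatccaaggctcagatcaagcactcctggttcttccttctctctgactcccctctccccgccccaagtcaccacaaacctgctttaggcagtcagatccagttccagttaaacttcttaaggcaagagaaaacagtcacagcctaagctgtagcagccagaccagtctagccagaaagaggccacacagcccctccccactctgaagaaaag

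The density of regions fell with distance from gene ends. Autosomes held 443.8 Mb at 1 to 10 kb from a protein-coding gene end, and shared summits numbered 30.1 per Mb there, against 81.1 within 1 kb and 19.0 at 10 to 100 kb. The ratio of the 1 to 10 kb band to the 10 to 100 kb band was 1.59 for shared peaks, 1.58 for all peaks of repeat 1 and 1.58 for all peaks of repeat 2. Within the band, density went from 38.9 per Mb at 1 to 2 kb to 25.1 at 9 to 10 kb. These densities use the full sequence length, including stretches to which tags cannot be mapped.

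The sides of a gene differed. Strand was known for 16457 of 20665 autosomal protein-coding genes (79.6%), through the promoter table. Inside genes past the start, 3437 regions gave 39.7 per Mb, and inside genes before the end, 2496 gave 29.0. Upstream of starts, 2543 regions gave 27.0 per Mb, and downstream of ends, 2054 gave 24.2. The other 2843 regions were nearest to genes without a strand in that table. The single lists had the same order at higher levels, with 50.4 and 47.4 per Mb past the start and 31.0 and 28.5 downstream of the end. At 1 to 2 kb past the start the density of shared summits was 55.9 per Mb, and at 9 to 10 kb it was 27.3.

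**Figure D2:**
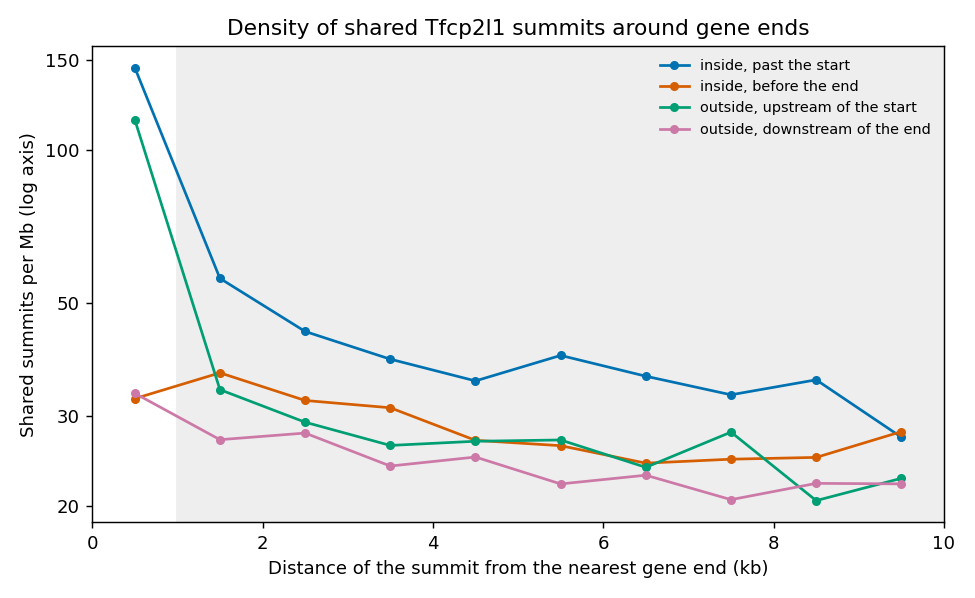
Shared summits per Mb of autosomal sequence (vertical log axis) in 1 kb steps of distance from the nearest gene end (horizontal axis), with 1 line for each side of a gene whose strand is known and the range from 1 to 10 kb shaded. Density past the start went from 55.9 per Mb at 1 to 2 kb to 27.3 at 9 to 10 kb, and was above the other 3 sides in each step up to 9 kb.

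In all, 8208 of the 13373 regions lay inside a protein-coding gene (61.4%, 60.5% to 62.2%), against 55.9% of all shared peaks (55.4% to 56.3%). Exons and introns could not be told apart. Sequence inside genes in this distance band held 34.1 regions per Mb, and sequence outside genes 25.4. By chromosome, density ran from 23.3 per Mb on chromosome 13 to 41.3 on chromosome 11.

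Enrichment at the regions was that of shared peaks in general. Median fold enrichment was 15.5 and 11.8, the same as over all shared peaks. Regions within 1 kb had medians of 17.2 and 11.8, and those beyond 100 kb had 13.5 and 10.99. At least 20-fold enrichment in both repeats was reached by 3308 regions (24.7%), against 23.9% of all shared peaks. The top 10% of both lists held 1376 regions (10.3%), against 9.75% of all shared peaks. These shares are near the background. The regions took 28.6% and 30.7% of the tags in all peaks. Just inside the inner limit, at 1 to 1.1 kb, medians were 16.97 and 11.97, and just outside it, at 0.9 to 1 kb, they were 15.9 and 12.2. At the outer limit they were 15.0 and 10.6 just inside (9.9 to 10 kb) and 14.0 and 12.1 just outside.

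Both repeats ranked the regions alike. Across 12615 regions with a one-to-one match, fold enrichment in repeat 1 and repeat 2 correlated with a Spearman's rho of 0.816 and, as log2 values, a Pearson's r of 0.868. These are across regions of 1 pair of ChIP libraries, and regions are not replicates. Summits lay a median of 28 bp apart, and 88.3% (87.8% to 88.9%) were within 100 bp of each other. Fold enrichment was higher in repeat 1 at 76.9% of regions, with a median log2 ratio of 0.39. All shared peaks gave nearly the same values, so this agreement was not particular to the distance range. Their rho was 0.814 and their median summit distance 28 bp, with 88.3% within 100 bp and 77.4% higher in repeat 1. By the summit of repeat 2, 98.7% of regions stayed in the same distance range.

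**Figure D3:**
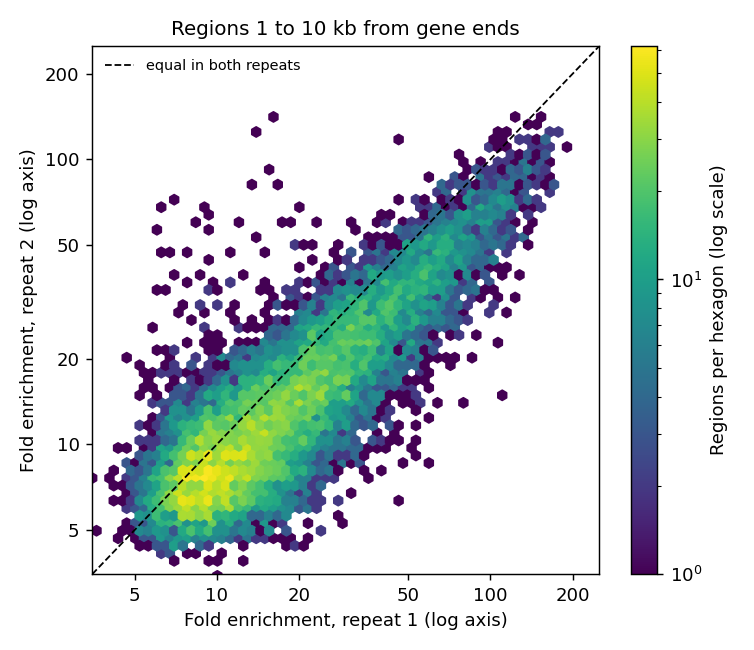
Fold enrichment of each of the 13373 regions in repeat 1 (horizontal log axis) and repeat 2 (vertical log axis), with colour giving the number of regions per hexagon and a dashed line of equal values. Most regions lie under the line, since repeat 1 had the higher value at 76.9% of them.

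The 6 most extreme differences between the repeats came with distant summits, although other large differences did not. Among regions with at least 20-fold enrichment in either repeat, the largest ratios in favour of repeat 1 were near Traip, a ubiquitin ligase gene (111-fold and 14.6-fold), Osm, the cytokine oncostatin M (47.8-fold and 6.47-fold), and Pald1 (60.4-fold and 8.63-fold). The largest in favour of repeat 2 were near Sh3tc1 (6.93-fold and 72.6-fold), Usp46, a deubiquitinase gene (6.47-fold and 66.7-fold), and Spata2l (6.06-fold and 57.7-fold). The matched summits of these 6 regions were 951 to 1821 bp apart, so the paired values belong to different points of the overlapping peaks. The region near Id4, by contrast, had 99.5-fold and 29.2-fold with summits 27 bp apart.

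The region with the best mean rank lay inside Plekhh1 (chr12:79035075-79036351), at 178-fold and 128-fold with 607 and 665 tags. Next were those inside Dync1h1 (178-fold and 122-fold), upstream of Ubald2 (169-fold and 123-fold) and upstream of Chka, the choline kinase of phosphatidylcholine synthesis (168-fold and 127-fold, 8.94 kb away). The region near Sh3bp1, a GTPase-activating protein gene, had 158-fold and 140-fold, and that downstream of Car15, a carbonic anhydrase gene, had 190-fold and 109-fold. The list medians were 12.1 and 10.2. These regions were picked for the best ranks, so values far above the medians follow from that choice.

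Other regions among the 20 best-ranked lay near genes of varied function. A region 1.05 kb upstream of Bcl3, an IκB family gene, had 158-fold and 115-fold, and 1 near Etv4, an ETS factor gene, had 158-fold and 103-fold. Regions inside Jup, which encodes the junction protein plakoglobin (157-fold and 115-fold), and 9.42 kb upstream of Acvr1b, an activin receptor gene (155-fold and 105-fold), were also among them. Tet1, a 5-methylcytosine dioxygenase gene, had 159-fold and 114-fold at 8.26 kb upstream of its start. Lgals3, which encodes galectin 3, had 160-fold and 100.5-fold. Ankrd35, Ostf1, Etnk1, Chrnb1, Rbm26, Pde1b, Tepp and Eps15l1 were nearest to the remaining 8, which ranged from 139-fold to 169-fold and, in repeat 2, from 98.5-fold to 130-fold. The score was 3100 for each of the 20 in either list, so it could not order them, and the ranking used fold enrichment. Tag counts would order them otherwise, with 1049 and 940 at Sh3bp1 against 607 and 665 at Plekhh1.

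**Figure D4:**
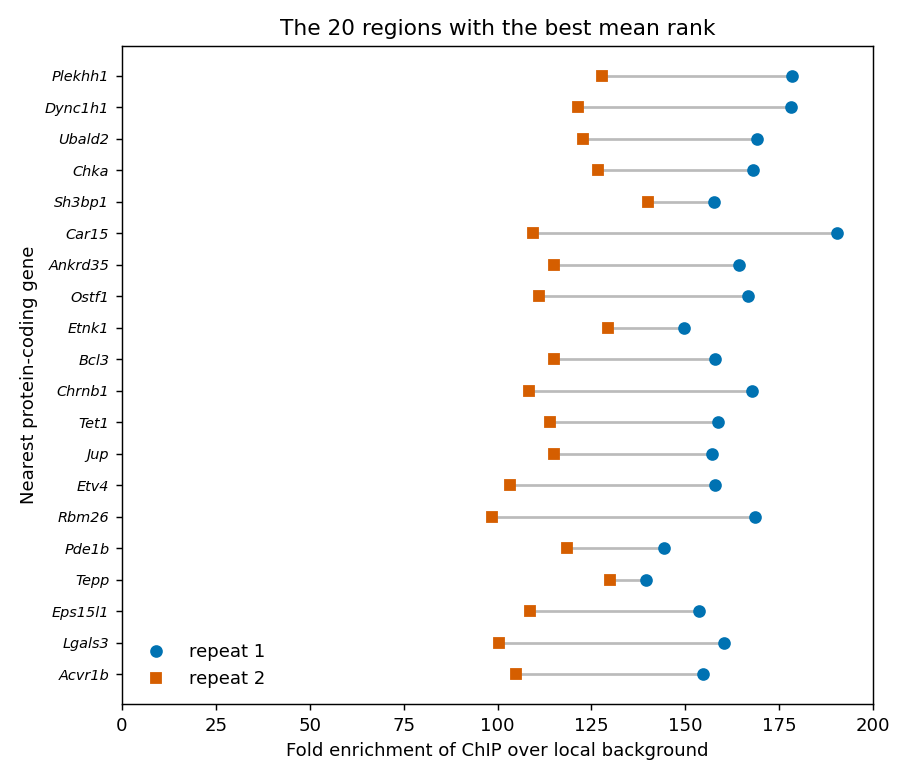
Fold enrichment (horizontal axis) in repeat 1 (circles) and repeat 2 (squares) of the 20 regions with the best mean rank, labelled by the nearest protein-coding gene (vertical axis). Repeat 1 is the higher in each, from 139-fold to 190-fold, and repeat 2 lies between 98.5-fold and 140-fold.

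At the other end of the ranking, regions near Ccdc170, Capns1, Mark4 and Gm31255 ranged from 4.47-fold to 5.50-fold in repeat 1, and from 4.32-fold to 4.71-fold in repeat 2. The widest region, downstream of Gadd45b, a stress-response gene, spanned 6486 bp and 5476 bp with 40.5-fold and 47.5-fold. The next widest were near Fcgr3 (6275 bp and 1877 bp, 6.13-fold and 5-fold) and inside Rhof (5045 bp and 4124 bp, 48.5-fold and 20.01-fold). Closest to the limits were regions 1.001 kb from Map7 and Kif11 and 10 kb from Gm2427 and Dicer1, where repeat 1 gave 13.5-fold to 23.8-fold and repeat 2 gave 5.33-fold to 23.2-fold.

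Regions came in groups. The nearest other shared summit was a median of 5.32 kb away, against 7.16 kb over all shared peaks, and 69.9% of regions had one within 10 kb, against 59.3%. The genes nearest to the most regions were Sp2, Sparc and Bmp7 with 9 each, and Grhl3, Cenpm, C77080, Trim8 and Deptor with 8 each. Around Sp2, a zinc finger factor gene on chromosome 11, enrichment ran from 5.96-fold to 145-fold in repeat 1 (median 14.7) and from 5-fold to 105-fold in repeat 2 (median 11.8). The region of 145-fold, at chr11:96955564-96957364, thus stood beside several near the bottom of the list. Around Sparc, which encodes a matrix glycoprotein, values were more even, at 9.23-fold to 71.5-fold (median 24.3) and 7.86-fold to 53.9-fold (median 23.9). Bmp7, a BMP ligand gene, had 5.87-fold to 76.9-fold and 5.89-fold to 42.7-fold. Grhl3, a Grainyhead factor gene, had 8.51-fold to 46.1-fold and 6.39-fold to 40.8-fold, with 6 of its 8 regions inside the gene. Cenpm, a centromere protein gene, had 7.66-fold to 107-fold and 5.38-fold to 65.0-fold. Neighbouring regions may match the same repeat 2 peak, as at Cenpm and Sparc, and are then not separate in repeat 2.

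Counted by gene, 9905 of 20665 autosomal protein-coding genes had a region 1 to 10 kb from an end (47.9%, 47.2% to 48.6%). For 6019 of them there was no shared peak within 1 kb of an end, while 3886 had both. Another 2331 genes had only a peak within 1 kb and 8429 had neither. At least 2 regions were found at 4810 genes and at least 5 at 399, and the most was 10.

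Where a gene had both kinds of peak, its strongest distal region exceeded its strongest gene-end peak at 53.9% of 3886 genes in repeat 1 (52.3% to 55.5%) and at 57.4% in repeat 2 (55.9% to 59.0%). It did so in both repeats at 47.3%. The numbers of peaks of each kind were not matched in this count. At 1613 genes with exactly 1 of each, the distal region was higher at 43.0% (40.5% to 45.4%) and 49.1% (46.6% to 51.6%). With an outer limit of 5 kb the shares over all such genes were 48.1% and 50.3%.

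The naive pluripotency list, genes that mark or maintain the ground state, had a region at 22 of 22 genes, against 47.9% of all genes. This and the other lists were written with earlier results of these data known, gene length and crowding were not matched, and no list was tested. Counts are of listed genes found on autosomes. A gene said to have none had neither a region within 10 kb of an end nor a shared peak within 1 kb of one. Shared peaks near such a gene that lay within 1 kb of another gene's end were not counted. Nanog, a core regulator, had 5 regions, the strongest at 135-fold and 95.4-fold. Tet2, a methylcytosine dioxygenase gene, had 176-fold and 80.5-fold at 9.20 kb, and 10.2-fold and 9.03-fold at its gene end. Fbxo15 had 101-fold and 67.5-fold. The Tfcp2l1 gene itself had 2 regions, the stronger at 26.1-fold and 15.4-fold, beside 14.3-fold and 10.99-fold at a gene end. The lowest-ranked were Pecam1 (16.4-fold and 6.33-fold) and Dppa4 (21.7-fold and 7.14-fold), and the strongest regions of the list ran from 176-fold down to 14.5-fold in repeat 1. With an FDR of 0% required in both repeats, 12 of the 22 genes had a region, against 13.2% of all genes.

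Of general pluripotency genes, 11 of 12 had a region, led by Foxd3 (127-fold and 69.1-fold), Pou5f1, which encodes Oct4 (69.1-fold and 54.6-fold), and Zscan10 (83.9-fold and 35.0-fold). Lin28b had none. In the LIF and Stat3 list 13 of 16 had a region. There the feedback inhibitor Socs3 followed Bcl3 with 98.7-fold and 59.7-fold at 1.32 kb, against 17.4-fold and 14.5-fold at its gene end. Icam1 had 87.7-fold and 49.0-fold, and the kinase gene Jak2 had none.

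In the FGF and ERK feedback list 15 of 17 had a region. Spry4 (62.0-fold and 37.7-fold) and Spry1 (54.6-fold and 34.7-fold), inhibitors of receptor tyrosine kinase signalling, followed Etv4, and the immediate-early gene Egr1 had none. In the Wnt and beta-catenin list 13 of 17 had one, led by Cdx1 (86.8-fold and 75.4-fold), Apc, of the beta-catenin destruction complex (80.7-fold and 38.3-fold), and Tcf7l2 (55.1-fold and 38.9-fold), and Ccnd1 had none. Cell cycle genes had a region at 14 of 18, and Cdk4 had none. Cyclin D3 (Ccnd3, 136-fold and 95.8-fold) and cyclin D2 (Ccnd2, 82.9-fold and 72.2-fold) were ahead of Mdm2, the ubiquitin ligase of p53 (84.1-fold and 61.6-fold). All 6 named cell cycle and Wnt leaders were above the list medians by several fold in both repeats. They were named for their high ranks, so this is no support for the lists.

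DNA methylation and chromatin genes had a region at 14 of 17, and Kdm4c had none. Kdm1a, a histone demethylase gene (83.2-fold and 91.5-fold), and Uhrf1, a cofactor of maintenance methylation (53.5-fold and 28.7-fold), came after Tet1. Glycolysis genes had one at 13 of 16. The glucose transporter gene Slc2a1 had 154-fold and 88.6-fold at 2.65 kb but 9.10-fold and 7.85-fold at its gene end, Aldoa had 107-fold and 63.2-fold, and Hk2 had 68.7-fold and 81.6-fold, while Hk1 had none. Epithelial genes had a region at 11 of 17, led by the splicing regulator Esrp2 (77.0-fold and 29.8-fold), the protease inhibitor Spint1 (44.2-fold and 42.3-fold) and Epcam (46.5-fold and 35.4-fold), and Esrp1 had none. Spint1 was stronger at its gene end, at 105-fold and 86.4-fold.

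Lists of other developmental states were also above the share of all genes. Trophoblast genes had a region at 11 of 13, among them Krt8 (105-fold and 77.7-fold), Eomes (64.9-fold and 51.8-fold) and Tfap2c (56.5-fold and 42.5-fold). Formative and primed epiblast genes had one at 10 of 14, among them Tead2 (121-fold and 141-fold), Otx2 (41.6-fold and 30.2-fold) and Etv1 (31.9-fold and 29.0-fold), and Cdh2 had none. Neural progenitor genes had one at 9 of 13, with the Notch target Hes1 (79.7-fold and 60.8-fold), Olig2 (56.2-fold and 49.1-fold) and Sox1 (50.7-fold and 43.2-fold). Endoderm genes had one at 9 of 14, with Sox17 (57.5-fold and 59.3-fold), Pdgfra (51.5-fold and 49.1-fold) and Lama1 (45.4-fold and 31.0-fold), and Col4a1 had none. The exact intervals of the last 3 lists, and those of the epithelial and housekeeping lists, include the share of all genes.

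Housekeeping genes had a region at 7 of 10, with Gapdh (67.4-fold and 82.8-fold) and Ppia (77.2-fold and 42.0-fold), and B2m had none. Lists of other tissues had lower shares. Liver genes had one at 4 of 13, with Hpx (58.9-fold and 26.3-fold), Fga (16.4-fold and 20.01-fold) and Ttr (17.4-fold and 11.4-fold), and Alb had none. Blood and immune genes had one at 4 of 12, where Cd4 (13.2-fold and 9.03-fold), Itgam (8.21-fold and 12.2-fold) and Csf1r (9.87-fold and 8.12-fold) were near the list medians. Fibroblast genes had one at 3 of 12, with Col1a1 (88.2-fold and 77.3-fold), Fn1 (46.9-fold and 41.2-fold) and Acta2 (7.25-fold and 9.03-fold), and Col1a2 had none. The 2-cell-like list had one at 2 of 10, near Zscan4f (10.6-fold and 13.7-fold) and Zscan4c (11.1-fold and 12.6-fold), and Gm8300 had none. The exact intervals of these 4 low lists also include 47.9%. Members of the Zscan4 family are near-identical copies, between which tags may be divided wrongly.

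**Figure D5:**
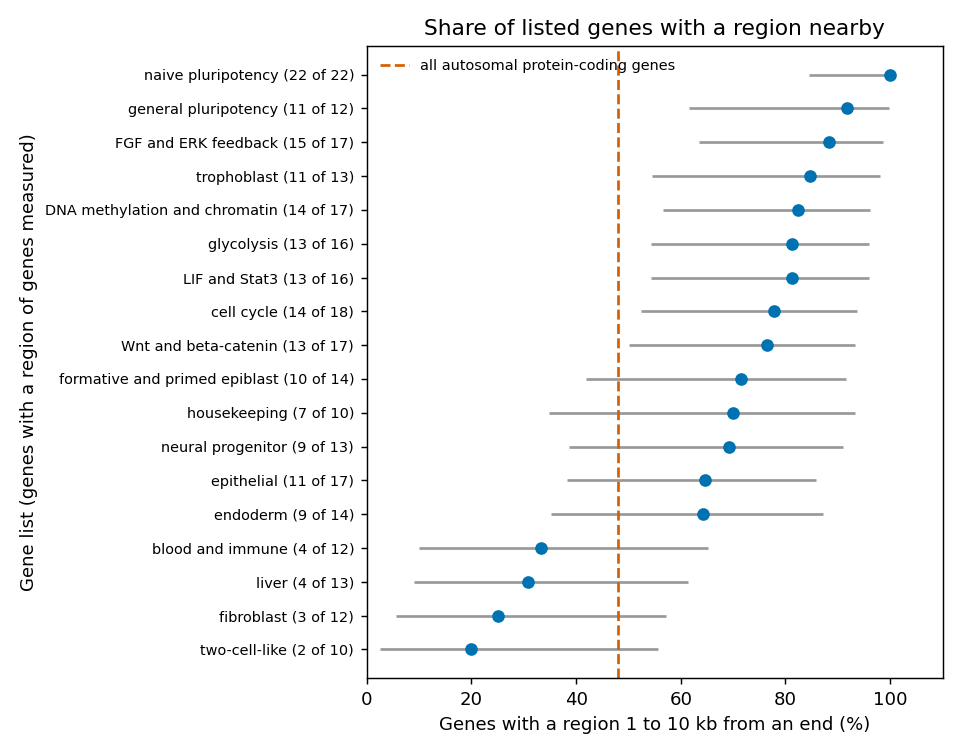
Percentage of genes in each of 18 lists (vertical axis, with counts) that had a region 1 to 10 kb from an end (horizontal axis). Points are shares, bars are exact 95% binomial intervals that cover counting error only, and the dashed line is the share of all autosomal protein-coding genes, 47.9%. Naive pluripotency genes had a region at 22 of 22, and 2-cell-like genes at 2 of 10.

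The distance rule used protein-coding genes only, so some regions lay at the ends of other genes. Within 1 kb of a non-coding gene end there were 906 regions (6.77%, 6.35% to 7.21%), of which 653 were nearest to an lncRNA gene, 126 to a pseudogene, 48 to a microRNA gene and 20 to a tRNA gene. The same share over all shared peaks was not computed, so 6.77% cannot be called high or low. The median enrichment of the 906 regions, 15.5 and 11.8, was that of the regions as a whole. The strongest was the Dync1h1 region, 267 bp from an end of the lncRNA gene Gm35558. Next were the regions at 1700012C14Rik (140-fold and 101-fold) and Gm33102 (136-fold and 78.5-fold). Others among the 10 best were at Gm34988, Gm5279 (a pseudogene), Gm38599, Gm42273, the tRNA gene n-TRcct1 and Gm28209, with 103-fold to 142-fold and 68.7-fold to 109-fold.

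A microRNA gene lay within 1 kb of 51 regions, and RefSeq gave 81 mature sequences for 48 of them. Here too the share over all shared peaks was not computed. No seed (bases 2 to 8 of the mature RNA) was shared between these microRNAs. The 3 arms printed next, seeds in capitals, belong to microRNA genes that are well known in development, epithelia and the p53 response, and they were picked after their values were seen.
miR-196b-5p: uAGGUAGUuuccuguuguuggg
miR-203-3p: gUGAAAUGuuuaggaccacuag
miR-34b-5p: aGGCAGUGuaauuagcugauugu

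The region at Mir196b, between genes of the Hoxa cluster, had 51.1-fold and 22.0-fold with its summit 75 bp from the microRNA gene. The region at Mir203 had 29.0-fold and 15.3-fold at 68 bp, and that at Mir34b, inside Hoatz, had 21.3-fold and 15.7-fold at 386 bp. These 3 are not typical of their class. The 48 regions nearest to a microRNA gene had median enrichments of 13.4 and 10.8, below the 15.5 and 11.8 of all regions.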

How the data were processed

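Tfcp2l1 ChIP-seq was analysed from 2 peak lists, 1 per repeat, made by the authors, without pooling. Per the file headers, MACS 1.4.1 compared each ChIP library with the input of the same repeat at a p-value cutoff of 1e-05, with 35 bp tags, a fragment length of 200 bp and at most 2 duplicate tags per position. Per the submitters' processing notes, CASAVA 1.8.2 was used. No aligner is named in those notes or headers. The notes name mm9, but the positions are those of GRCm38, so the RefSeq tables of that build were used. The deposited tag count is a whole number of ChIP tags per peak. The deposited fold enrichment is a ratio to the local background. The deposited score is the -log10 of the p-value times 10, and the deposited FDR is in percent.

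Shared peaks, distances, densities (on a grid of 100 bp) and half-site pairs were computed with Python 3.11.15, numpy 2.4.6, pandas 2.3.3 and scipy 1.17.1, and checked on simulated data. A summit is the list's start plus its summit column minus 1. Repeat 2 values are those of the peak with the longest overlap. Intervals are 95% Clopper-Pearson intervals. No test was run, since there are 2 repeats and regions are not replicates.

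The regions and gene lists were chosen with earlier results of these data known. Genes were named by rule: the 20 best mean ranks, the 6 genes with most regions, and up to 3 genes with a region and 1 with none per list. The rule also took the 10 best at non-coding ends, the 3 largest repeat differences each way, the 4 lowest ranks, 2 regions at each limit and the 3 widest. Some genes that the rule names are left out of the text. Genes beside printed sequences, the 3 microRNAs, Trim8 and Deptor (tied in count with the last of the 6), the Tfcp2l1 gene and the lowest-ranked naive genes were named after their values were seen. Alternatives were stricter overlap, fold and FDR limits, other distances, all RefSeq genes, each list alone, and moved summits. Sequence outside promoter windows was not used here.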

Additional observations from a re-analysis of the deposited data

How the results depend on the processing

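Stricter fold and FDR limits lowered counts and densities. Median enrichment rose in both repeats with the fold limit, but mainly in repeat 1 with the FDR limit. The distance limits left median enrichment nearly the same. The number of regions was 7431 with at least 10-fold enrichment in both repeats, 2299 with an FDR of 0% in both and 7774 with an outer limit of 5 kb. It ranged from 15760 to 17201 in the single lists, without replicate 1 or 2. Density was 26.7 per Mb with summits within 100 bp, 16.7 at 10-fold, 5.18 at an FDR of 0%, 24.1 with all RefSeq genes, 33.3 with the 5 kb limit and 35.5 to 38.8 in the single lists. The share inside genes was 53.8% with all RefSeq genes, 62.5% with the 5 kb limit, 60.4% with an inner limit of 2 kb, and 61.2% to 62.2% in the single lists. Median fold enrichment in repeat 1 was 25.6 at 10-fold, 20.3 at an FDR of 0% and 12.4 over all its own peaks. In repeat 2 it was 19.2 at 10-fold, 12.2 at an FDR of 0% and 10.2 over all its own peaks, against 11.8 in the main setting.

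The share of genes with a region was 45.3% with summits within 100 bp, 33.1% at 10-fold, 13.2% at an FDR of 0%, 36.3% with all RefSeq genes, 32.5% with the 5 kb limit, 41.3% with the 2 kb limit and 52.8% to 54.96% in the single lists. The distal region was the stronger in repeat 1 at 50.3% of genes at 10-fold, 48.1% with the 5 kb limit, 49.8% with the 2 kb limit and 57.2% in the single list. In repeat 2 these were 53.1%, 50.3%, 53.0% and 57.1%, with 53.5% at an FDR of 0%. The side that was stronger at most genes thus changed with the distance limits in repeat 1. Regions at non-coding ends were 6.63% at 10-fold, 6.598% with the 2 kb limit, 6.65% to 6.84% in the single lists, and 0% by construction with all RefSeq genes.

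Summits within 100 bp made up 90.2% with a reciprocal overlap of 50%, 94.1% at 10-fold, 89.9% at an FDR of 0% and 100% by construction where that was the rule. Spearman's rho was 0.827, 0.805 and 0.785 with summits within 100 bp, at 10-fold and at an FDR of 0%. The loose pair stood in 34.6% to 47.0% of stretches below the summit over 6 settings chosen after seeing the data, including 38.8% to 40.8% in the single lists. Moving summits by 75 bp, also chosen then, left the count, density, enrichment, gene and non-coding values within the spread between repeats. Of 198 counts for gene lists, 27 moved by more than 1.5 times, among them those of all 18 lists at an FDR of 0%, where naive pluripotency fell from 22 to 12 and FGF and ERK feedback from 15 to 3. Only 254 regions had sequence at the summit, which limits what the half-site counts can show. No paired analysis was possible because the inputs enter only through the authors' peak calls and no groups were tested.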
